A study of Mus musculus with 6 samples.

Results

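The glycolysis enzymes followed here are the products of 10 mouse genes, Hk1, Hk2, Pfkfb3, Aldoa, Tpi1, Pgk1, Eno1, Eno1b, Pkm and Ldha, taken by gene symbol from the 24421 rows of an expression table of the postnatal day 7 retina. All 10 symbols were found, and 9 of the 10 passed the filter on low values that left 13622 genes for testing. RNA sequencing was carried out on 6 libraries of cells labelled as retinal endothelial cells from C57BL/6 pups, 3 from Anxa3 fl/fl;Tie2-Cre mutants and 3 from Anxa3 fl/fl controls. Both groups carry the floxed Anxa3 alleles. Only the mutants carry the Cre recombinase, which the Tie2 promoter drives in endothelial cells and in much of the blood lineage, so an effect of Cre and one of Anxa3 loss cannot be told apart. How many pups went into a library is not stated in the labels. The spread that the p-values are measured against is therefore that of the 6 libraries, and it may be technical.

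Glycolysis splits glucose into pyruvate in the cytosol and yields ATP without oxygen. Hexokinases trap glucose in the cell, the phosphofructokinase step sets the pace, aldolase and triosephosphate isomerase split and convert the sugar, and phosphoglycerate kinase and pyruvate kinase make ATP. Lactate dehydrogenase then turns pyruvate into lactate and restores the NAD+ that the pathway needs. Photoreceptors are known for making lactate even where oxygen is plentiful, and sprouting endothelial cells are known to rely on glycolysis, with PFKFB3 as a regulator of vessel sprouting.

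Values are FPKM, fragments scaled by gene length and by library depth, so levels can be set side by side between genes. Reads worked out from the FPKM steps came to between 21377039 and 30885793 per library. Anxa3 itself, the targeted gene, measured 9.78, 12.5 and 15.1 FPKM in mutant replicates 1, 2 and 3, against 18.7, 17.7 and 43.4 FPKM in control replicates 1, 2 and 3. All mutant libraries lay below all control libraries, with a log2 difference of -0.93 that was -0.53 without control replicate 3, and the two-sided exact permutation test gave p = 0.1, the smallest that 20 arrangements allow (limma adjusted p = 0.9998). These values count reads over the whole gene, exons outside the floxed part included. Against the endothelial label, all 10 endothelial markers were present, but photoreceptor markers stood higher. The 10 photoreceptor markers summed to between 4415 and 5838 FPKM in mutants and between 3760 and 5343 FPKM in controls, whereas the 10 endothelial markers summed to between 496.6 and 655.1 FPKM in mutants and between 454.3 and 988.3 FPKM in controls. In bulk RNA, fewer cells of a type and less RNA per cell cannot be told apart, and which cells an enzyme's transcripts came from was not measured.

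The 250 bases before 1 annotated start of each of 3 member genes, the start furthest upstream where RefSeq gives several, are printed because these genes took different courses across the libraries, as described further on: Ldha and Pgk1 ran with most of the enzymes and Pfkfb3 ran against them. Sequences are from RefSeq on GRCm38.p6, 5′ to 3′ on the gene's own strand. Capitals mark the letters ACGTG or GCGTG on either strand, the core that the hypoxia-inducible factor HIF-1 is known to bind. Where CACGTG occurs, the match also holds an E-box.
Ldha, chr7:46845554-46845803, plus strand: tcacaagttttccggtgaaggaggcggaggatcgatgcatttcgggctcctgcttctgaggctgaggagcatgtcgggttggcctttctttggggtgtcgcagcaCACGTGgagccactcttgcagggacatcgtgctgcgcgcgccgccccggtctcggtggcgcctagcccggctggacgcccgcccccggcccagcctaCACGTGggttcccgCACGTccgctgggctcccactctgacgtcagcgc
Pgk1, chrX:106186850-106187099, plus strand: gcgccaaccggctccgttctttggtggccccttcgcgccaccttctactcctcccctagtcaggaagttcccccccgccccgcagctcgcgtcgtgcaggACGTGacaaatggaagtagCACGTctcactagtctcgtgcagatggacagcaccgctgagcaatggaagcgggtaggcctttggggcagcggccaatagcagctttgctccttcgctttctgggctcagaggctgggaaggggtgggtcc
Pfkfb3, chr2:11553930-11554179, minus strand: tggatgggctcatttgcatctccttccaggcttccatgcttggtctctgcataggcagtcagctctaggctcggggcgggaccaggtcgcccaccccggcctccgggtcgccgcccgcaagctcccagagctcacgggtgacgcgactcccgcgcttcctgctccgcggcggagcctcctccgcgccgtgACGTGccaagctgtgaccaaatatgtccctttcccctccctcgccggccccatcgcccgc
The table held 17 annotated starts, some with overlapping windows, for 9 of the 10 members. Either core occurred before 13 of these 17 starts, with ACGTG before 8 and GCGTG before 6. Over all 32851 RefSeq starts, 38.6% had either core in the window of the same length, 16.6% had ACGTG and 28.2% had GCGTG. The second start of Pfkfb3, not printed, has CACGTG and GCGTG in its window, and the second start of Ldha has GCGTG. A match of 5 letters is a description of these windows and not a binding site. Hif1a, which encodes the oxygen-regulated subunit of HIF-1, measured 213, 164 and 146 FPKM in mutant replicates 1, 2 and 3 and 206, 186 and 140 FPKM in control replicates 1, 2 and 3, and its range in mutants overlapped that in controls.

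The members covered a wide range of levels, with Ldha and Pkm, of the last steps of the pathway, at the top. Ldha averaged 423 ± 44.7 FPKM in mutants and 405 ± 85.9 FPKM in controls, and Pkm, pyruvate kinase, 406 ± 44.5 FPKM in mutants and 414 ± 45.8 FPKM in controls (SD, n = 3 each). Ldha lay above 99.864% and Pkm above 99.859% of all genes with any signal. Ldha was above Pkm in 4 of 6 libraries and their ranges overlapped, so these neighbours in the order do not differ beyond their spread. Aldoa, the aldolase, came next at 247 ± 30.3 FPKM in mutants and 247 ± 42.7 FPKM in controls, apart from Pkm and from Tpi1 in all 6 libraries. Tpi1, triosephosphate isomerase, was above Hk1 in 6 of 6 libraries although the ranges over libraries overlapped. Pgk1, phosphoglycerate kinase, stood below Hk1 and above Pfkfb3 with no overlap. Pfkfb3, Eno1b and Hk2 followed with ranges that overlapped from neighbour to neighbour, and Eno1 was listed at or near 0. Together the 10 members made up between 0.379% and 0.473% of all summed FPKM in mutants and between 0.354% and 0.472% in controls.

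**Figure D1:**
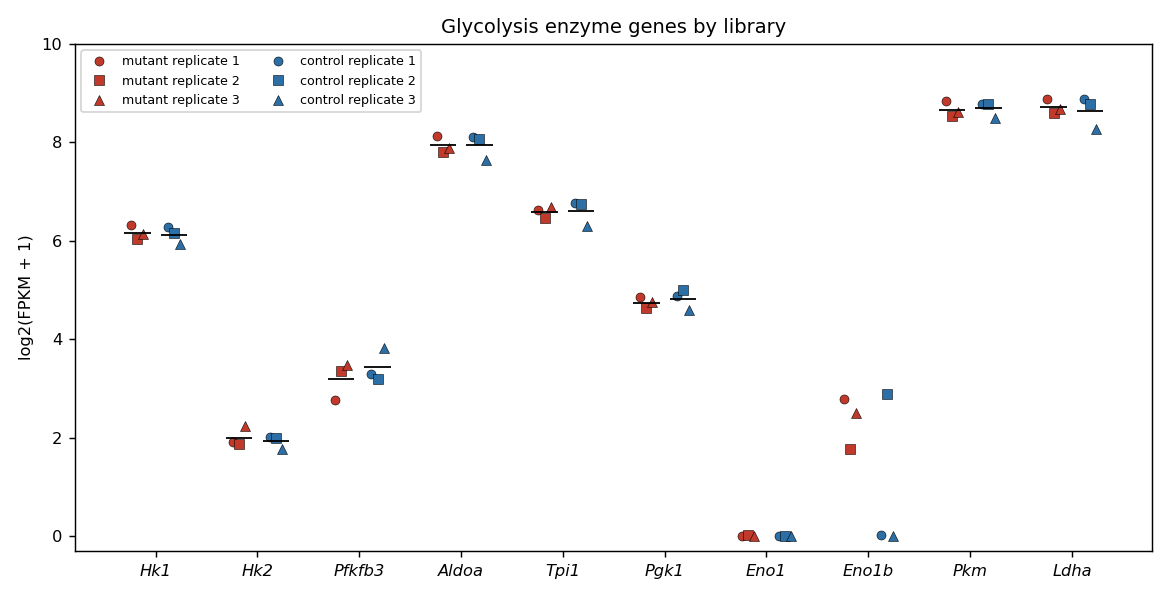
Level of each of the 10 genes on the log2(FPKM + 1) scale, 1 point per library, mutants in red on the left of each pair and controls in blue on the right. Horizontal lines are group means, left out for the enolase rows with values of 0. Mutant and control points overlap for every gene, and control replicate 3 is the lowest point for Hk1, Hk2, Aldoa, Tpi1, Pgk1, Pkm and Ldha.

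No member passed the test between mutants and controls. Differences are given as log2(FPKM + 1) in mutants minus controls, a scale that understates those of low genes. In the limma fit over all 13622 genes 0 of the 9 members tested passed at an adjusted p under 0.05, against a background of 0.0% of genes, and 0 of the 9 had an unadjusted p under 0.05, against 1.21% of genes. With voom on the recovered reads 0 members passed, and 1, Eno1b, had an unadjusted p under 0.05, against 0.712% of genes. Mutant and control ranges overlapped for all 9, whereas they did not overlap for 4.35% of genes. Of the members tested, 5 had a log2 difference above 0, where 47.5% of all genes tested did, and 4 had one below 0, where 52.5% of all genes tested did. The median log2 difference was 0.01 over the members and -0.01 over all genes. The directions depended on how libraries were weighted. Library weights estimated in limma were 6.999 in mutant replicate 2 and 3.346 in control replicate 2. The others ran from 0.260 in control replicate 3 to 0.747 in control replicate 1. The weighted fit thus rested mostly on mutant replicate 2 and control replicate 2. In it 8 of the 9 had a difference below 0, against 49.8% of genes, and 1, Pfkfb3, had one above 0. In that fit 0 of the 9 passed, against 1.06% of genes, and 4, Tpi1, Aldoa, Pkm and Pgk1, had an unadjusted p under 0.05, against 29.9% of genes. The smallest adjusted p among them was 0.0605, for Pgk1, with a log2 difference of -0.31.

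At the entry to the pathway, Hk1, the hexokinase of most tissues and of neurons (chr10:62268855-62379908, minus strand, GRCm38), measured 78.8, 64.3 and 69.9 FPKM in mutant replicates 1, 2 and 3, against 76.3, 70.8 and 59.9 FPKM in control replicates 1, 2 and 3. The highest library was a mutant and the lowest a control, with the others mixed between them. The log2 difference was 0.04 with a standard error of 0.125 (limma adjusted p = 0.9998), and the 95% interval ran from 0.843-fold to 1.26-fold. Hk2, the inducible hexokinase found in photoreceptors and in many tumours (chr6:82725025-82774454, minus strand), measured 2.74, 2.66 and 3.69 FPKM in mutant replicates 1, 2 and 3, against 3.02, 3.01 and 2.42 FPKM in control replicates 1, 2 and 3. Mutant replicate 3 was the highest and control replicate 3 the lowest, and the remaining mutants lay below the remaining controls. Its log2 difference was 0.07 with a standard error of 0.151 (limma adjusted p = 0.9998). Between 318 and 566 reads lay behind each Hk2 value, against 6994 to 10619 for Hk1. The log2 ratio of Hk2 to Hk1 within a library averaged -4.56 ± 0.30 in mutants and -4.62 ± 0.05 in controls (SD, n = 3 each), and the difference of 0.05 had a two-sided exact permutation p = 0.8. Without mutant replicate 3 that difference was -0.11.

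Hk1 supplied between 78.2% and 82.9% of the FPKM summed over Hk1, Hk2, Hk3 and Hkdc1 in mutants and between 78.4% and 80.2% in controls. Hkdc1, a hexokinase domain protein, was second at 13.6% to 18.0% in mutants and 16.0% to 17.8% in controls, and Hk2 held 2.88% to 4.16% in mutants and 3.16% to 3.33% in controls. Hk3 was under the filter, at 0.587 ± 0.169 FPKM in mutants and 0.515 ± 0.0949 FPKM in controls (SD, n = 3 each).

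Pfkfb3 makes fructose-2,6-bisphosphate, the activator of phosphofructokinase. Its gene (chr2:11471433-11554077, minus strand) was the member that varied most between libraries apart from the enolase copies. It measured 5.82, 9.17 and 10.2 FPKM in mutant replicates 1, 2 and 3, against 8.84, 8.21 and 13.1 FPKM in control replicates 1, 2 and 3. The lowest value was in mutant replicate 1 and the highest, 2.24 times as high, in control replicate 3, with the other libraries close together. The log2 difference was -0.24 with a standard error of 0.226 (limma adjusted p = 0.9998), and the interval ran from 0.59-fold to 1.22-fold. Without control replicate 3 it was -0.05, and without mutant replicate 1 it was -0.02. The endothelial markers, all 10 of which were highest in control replicate 3, stood at a mean log2(FPKM + 1) level of 5.24, 5.36 and 5.59 in mutant replicates 1, 2 and 3 and of 5.32, 5.15 and 6.24 in control replicates 1, 2 and 3. All 8 pericyte and smooth muscle markers were highest in control replicate 3 too, and so were 4 of 6 progenitor and cycling markers, against 24.4% of all genes tested. The pericyte and smooth muscle markers stood at a mean of 3.85, 3.69 and 3.85 in mutant replicates 1, 2 and 3 and of 3.47, 3.51 and 4.34 in control replicates 1, 2 and 3. The part of these cells in the Pfkfb3 values was not tested. Pfkfb3 held 14.4% to 21.8% of the PFKFB family's summed FPKM in mutants and 19.4% to 26.6% in controls, behind Pfkfb2, which held 60.6% to 69.1% in mutants and 54.9% to 63.7% in controls. Of the 50-base windows of Pfkfb2, 25.1% also lie in the annotated gene Gm29427, so its share is uncertain.

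The 3 genes whose course over the 6 libraries lay nearest to that of Pfkfb3, by the root mean square distance between centred log2(FPKM + 1) profiles, were Cyth4 at 0.0482, Ldlrad4 at 0.0763 and Inpp5d at 0.0833. Like Pfkfb3, each was highest in control replicate 3 and lowest in mutant replicate 1. Inpp5d, which encodes the lipid phosphatase SHIP1 of blood cells, measured 2.47, 3.75 and 4.99 FPKM in mutant replicates 1, 2 and 3 and 3.58, 3.40 and 6.47 FPKM in control replicates 1, 2 and 3. Of the 8 microglia markers, 0 were highest in control replicate 3, against 24.4% of all genes tested.

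In the middle of the pathway, Aldoa (chr7:126795234-126800751, minus strand) measured 280, 222 and 237 FPKM in mutant replicates 1, 2 and 3, against 274, 269 and 198 FPKM in control replicates 1, 2 and 3. The group means were nearly the same and the control range enclosed most of the mutant one. The log2 difference was 0.01 with a standard error of 0.176 (limma adjusted p = 0.9998). Aldoa held 93.8% to 94.3% of the aldolase FPKM in mutants and 94.3% to 95.1% in controls. Aldoc, the brain form, held nearly all the remainder. Tpi1, which interconverts the triose phosphates that aldolase makes (chr6:124810586-124814296, minus strand), measured 97.8, 87.8 and 102 FPKM in mutant replicates 1, 2 and 3, against 108, 106 and 77.4 FPKM in control replicates 1, 2 and 3. The mutants lay between the high and the low controls, and the log2 difference of -0.003 had an interval from 0.788-fold to 1.26-fold.

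Pgk1, the first ATP-making enzyme of the pathway (chrX:106187100-106203699, plus strand), measured 28.1, 23.7 and 25.9 FPKM in mutant replicates 1, 2 and 3, against 28.6, 31.0 and 23.2 FPKM in control replicates 1, 2 and 3. The order was mixed, with a control at either end. The log2 difference was -0.08 with a standard error of 0.126 (limma adjusted p = 0.9998). Of the windows of 50 bases along its longest coding transcript, which has 1825 bases, 68.0% also occurred in transcripts of other annotated genes, nearly all of them in the retrocopy Pgk1-rs7, and with windows of 100 bases the share was 67.0%. The length worked out from the FPKM steps was 1825 bases as well. How reads with several matches were counted is not given in the sources used here.

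The enolase rows were the least certain of the set. Eno1 (chr4:150236721-150248879, plus strand) encodes the enolase of most tissues, yet it was listed at 0 in 5 libraries and at 0.0181 FPKM, about 1 read, in mutant replicate 2. Eno1b, a near-identical copy (chr18:48045335-48048412, plus strand), measured 5.94, 2.39 and 4.64 FPKM in mutant replicates 1, 2 and 3, against 0.019, 6.37 and 0 FPKM in control replicates 1, 2 and 3. The mutants lay between a control that was the highest library and 2 controls at or near 0. Of the windows of 50 bases, 72.2% in the longest Eno1 transcript and 84.5% in that of Eno1b occurred in other genes' transcripts, most of them shared between these copies. The Eno1b row had a length of 3411 bases by its FPKM steps, whereas its longest annotated transcript has 1791 bases. A value of 0 in these rows can be a failed estimate, and these rows are not read here as the level of enolase. For the sum of both copies on the log2(FPKM + 1) scale, the mutants stood at 2.80, 1.77 and 2.49 and the controls at 0.03, 2.88 and 0.00, with a two-sided exact permutation p = 0.4. The limma adjusted p of Eno1b was 0.9998, and the difference without control replicate 2 was 2.34, without control replicate 1 it was 0.91 and without control replicate 3 it was 0.90, against 1.38 with all libraries. The Eno1b difference was 3.29 with a pseudocount of 0.1 and 5.51 with voom, but -0.35 with library weights.

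**Figure D2:**
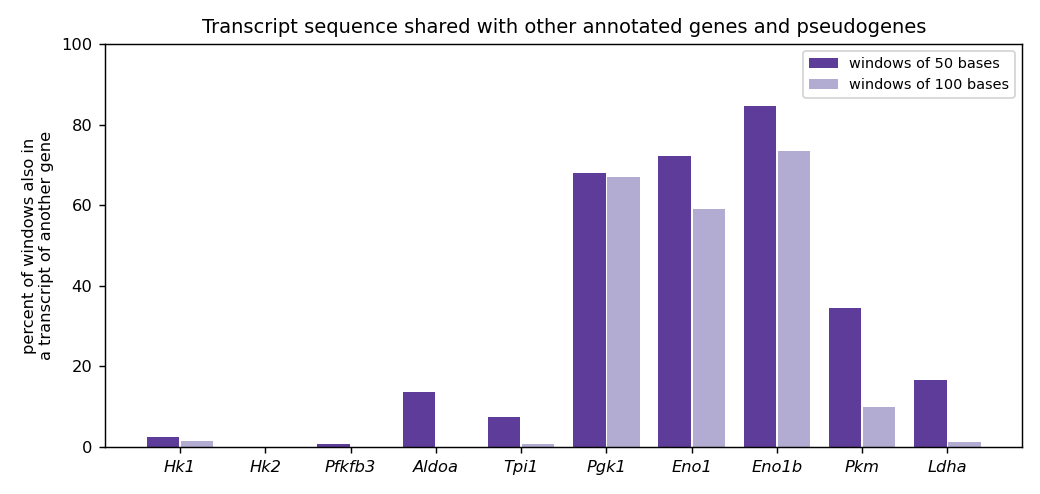
Percent of windows of 50 or 100 bases, along the longest coding transcript of each member in GENCODE M21, that also occur on either strand in a transcript of another annotated gene or pseudogene. Pgk1, Eno1 and Eno1b stand at 59.0% or more for both window lengths, Pkm at 34.4% for 50 bases, and Hk2 at 0%.

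By the same rule of nearness, the least distant courses to that of Eno1b included those of Mir7675 on chromosome 12, at 0.751, and of Mmel1 on chromosome 4, at 0.784. These distances are far larger than the 0.0482 to 0.0833 for Pfkfb3, so neither course is close. Mir7675 was lowest in control replicate 1, at 0 FPKM, and next lowest in mutant replicate 2, at 0.554 FPKM. Mmel1, a membrane metallopeptidase gene from 154869585 to 154895530, measured 2.88, 1.65 and 2.79 FPKM in mutant replicates 1, 2 and 3, against 0.783, 1.97 and 0.671 FPKM in control replicates 1, 2 and 3. Like Eno1b, it was lowest in control replicates 1 and 3. It lies on the same chromosome as Eno1, and Eno1b is on another.

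The other enolases were measured without such gaps. Eno2, the neuronal form, averaged 54.6 ± 1.35 FPKM in mutants and 50.8 ± 4.81 FPKM in controls, and Eno3, the muscle form, 25.1 ± 0.563 FPKM in mutants and 22.8 ± 1.86 FPKM in controls (SD, n = 3 each). Their log2 differences were 0.11 and 0.13, and neither passed (limma adjusted p = 0.9998 for each). Eno2 held 63.6% to 64.3% of the enolase FPKM in mutants and 62.0% to 68.9% in controls, shares that rest on the Eno1 row being near 0.

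At the end of the pathway, Pkm (chr9:59656368-59679375, plus strand) measured 455, 368 and 395 FPKM in mutant replicates 1, 2 and 3, against 442, 439 and 361 FPKM in control replicates 1, 2 and 3. The groups were interleaved, and the log2 difference of -0.03 had a standard error of 0.175 (limma adjusted p = 0.9998). The row joins the splice forms PKM1 and PKM2, which these gene-level values cannot separate, and 34.4% of the 50-base windows of its transcript occurred in other annotated transcripts, mostly pseudogenes. Pklr, the liver and red cell form, stayed at 0.136 FPKM or less. Ldha, the subunit that favours lactate production (chr7:46841475-46855627, plus strand), measured 473, 387 and 407 FPKM in mutant replicates 1, 2 and 3, against 469, 439 and 308 FPKM in control replicates 1, 2 and 3. Control replicate 3 lay well below the others, and the log2 difference was 0.08 with a standard error of 0.209 (limma adjusted p = 0.9998). Ldha held 94.1% to 95.5% of the lactate dehydrogenase FPKM in mutants and 94.0% to 94.6% in controls, and Ldhb, the heart-type subunit, nearly all the rest.

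**Figure D3:**
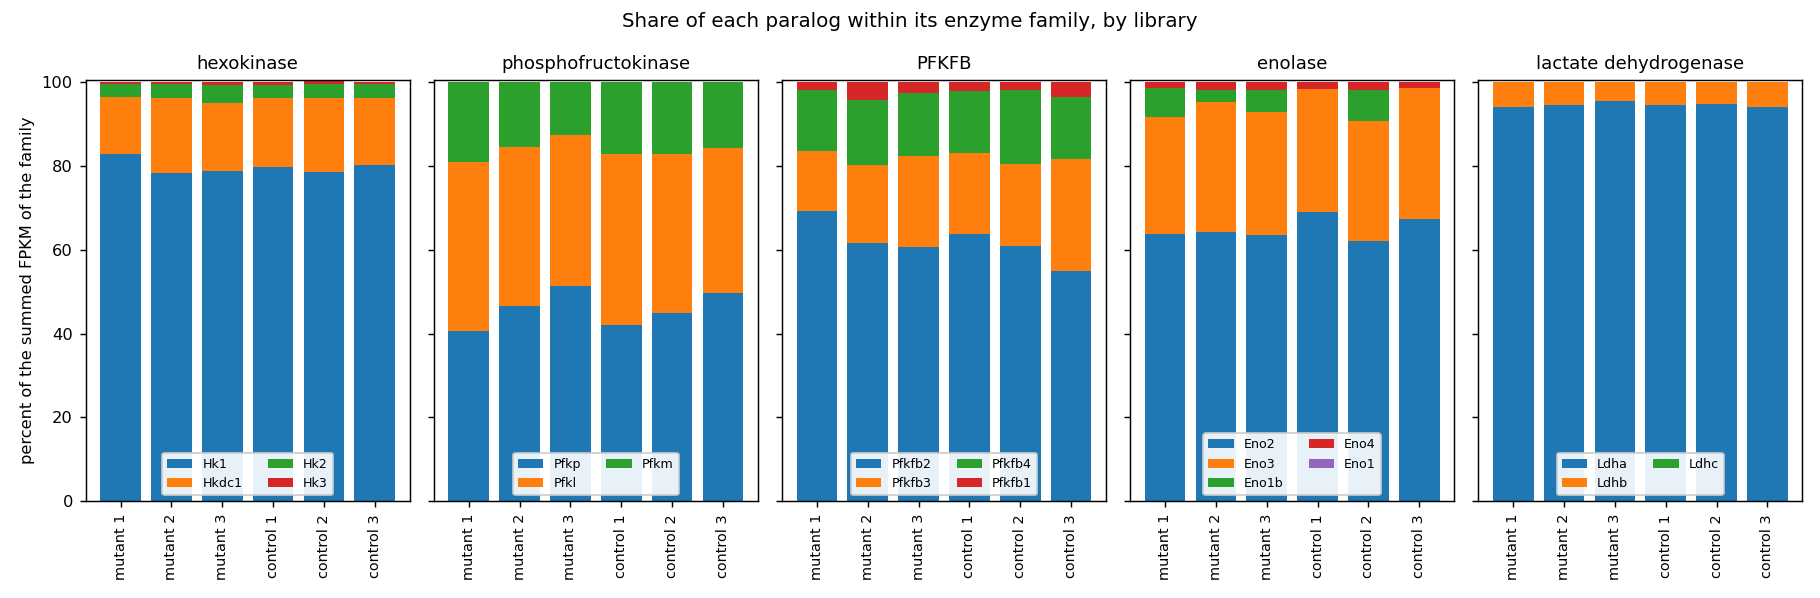
Stacked bars give, for 5 enzyme families, the percent that each named gene holds of the FPKM summed over the genes in its panel, 1 bar per library, mutants left of controls. Hk1, Pfkfb2, Eno2 and Ldha hold the largest share of their panel in every library, and the enolase bars differ most between libraries in the Eno1b share, from 0% to 7.42%.

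**Figure D4:**
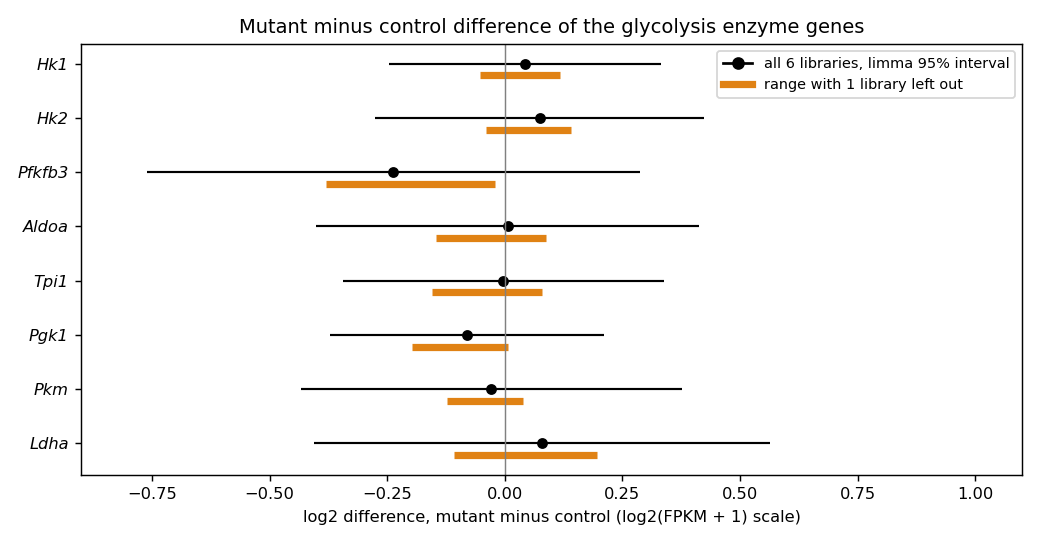
Log2 difference of mutants minus controls for 8 members, with the limma 95% interval (black) and the range over fits that leave out 1 library (orange). All intervals cross 0, and the orange bar crosses 0 for every gene except Pfkfb3. Eno1b is left out for its values of 0, and Eno1 was not tested.

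For the 8 members other than the enolase copies the limma intervals lay between 0.59-fold and 1.48-fold. Signs were not stable. With 1 library left out the difference changed sign for Hk1, Hk2, Aldoa, Tpi1, Pgk1, Pkm and Ldha. It stayed above 0 for Eno1b and below 0 for Pfkfb3.

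Most of the enzymes varied together between libraries, along a division by library letter that differs from genotype but is not balanced for it. The labels give each library a letter and do not explain it. The cut between C and D was made here and is not in the labels, and no other cut is shown. A to C hold more controls and D to F more mutants, so the letter division and genotype are not separate. A and C are control replicates 1 and 2, B is mutant replicate 1, D is control replicate 3, and E and F are mutant replicates 2 and 3. The libraries with the largest weights in the weighted fit, E and C, fall on opposite sides of this cut. In that fit genotype and the letter division therefore cannot be told apart. Hk1, Aldoa, Pgk1, Pkm and Ldha were each higher in all of A, B and C than in any of D, E and F. Ldha, for example, measured 473 FPKM in B, 469 in A and 439 in C, against 387 in E, 407 in F and 308 in D. Pfkfb3 ran the other way, with all of A, B and C below D, E and F, while Tpi1, Hk2 and Eno1b overlapped. The letter sets did not overlap for 6 of 9 members and for 35.1% of all genes tested, in 2720 genes with A to C higher and in 2061 with A to C lower out of 13620. Control replicate 3 was the lowest library for 8 of 9 members, against 24.3% of all genes tested, and the highest for 1, against 24.4%.

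Photoreceptor markers and, in part, endothelial and inner retinal neuron markers followed the same division. Photoreceptor markers stood at a mean log2(FPKM + 1) level of 8.57, 8.19 and 8.21 in mutant replicates 1, 2 and 3 and of 8.43, 8.37 and 7.96 in control replicates 1, 2 and 3, and 9 of 10 were higher in all of A to C than in any of D to F. Their summed level was 5026 to 5838 FPKM in A to C and 3760 to 4499 FPKM in D to F. Of the 10 endothelial markers, 6 were lower in all of A to C, with sums of 454.3 to 512.9 FPKM in A to C and 533.8 to 988.3 FPKM in D to F. The sets were apart for 5 of 10 inner retinal neuron markers, 4 lower and 1 higher in A to C, against 35.1% of all genes tested. In the remaining lists the sets were mostly not apart. They were apart for 0 of 8 pericyte and smooth muscle markers, 0 of 8 microglia markers and 2 of 8 Muller glia and astrocyte markers. The counts were 1 of 6 for progenitor and cycling markers, 0 of 4 for pigment epithelium markers and 1 of 5 for erythroid markers. None of the photoreceptor or endothelial markers was at 0, whereas 3 of 5 erythroid markers were at 0 in all libraries. The part of any of these cell types in the enzyme levels was not tested. With the letter sets as a block, 0 members passed in limma, Pfkfb3 had a log2 difference of -0.44 and Ldha one of 0.21, and 2 of the 9, Pfkfb3 and Eno1b, had an unadjusted p under 0.05, against 6.81% of genes.

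**Figure D5:**
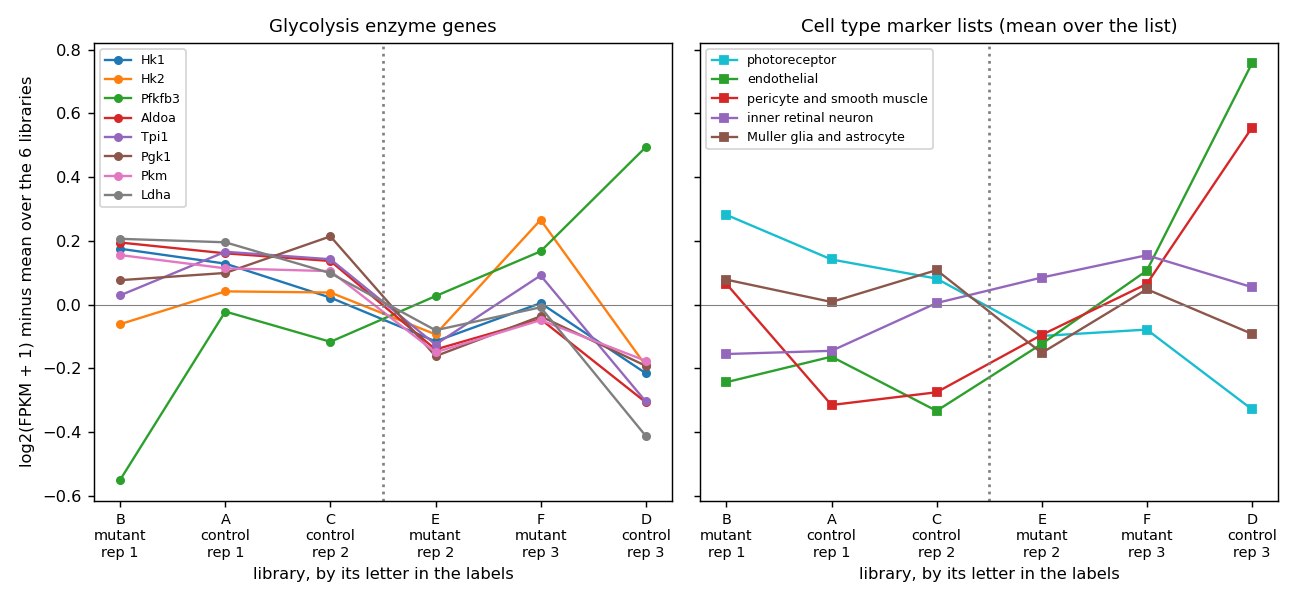
Left, log2(FPKM + 1) of 8 members minus each gene's mean over the 6 libraries; right, the same for the mean of 5 marker lists; libraries are set by their letters, A to C left and D to F right of the dotted line, mutants first within each set. Aldoa, Pgk1, Pkm, Ldha and the photoreceptor list lie above 0 on the left and below it on the right, with Pfkfb3 and the endothelial list highest in control replicate 3.

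Around the members, 45 other genes of glycolysis and fuel supply were listed and 36 were tested. Of these, 0 passed in limma, against 0.0% of all genes tested, and 0 had an unadjusted p under 0.05, against 1.21%. Among them 21 had a log2 difference below 0, where 52.5% of all genes tested did. The other 15 had one above 0, where 47.5% of all genes tested did. The median log2 difference was -0.02, from -0.24 to 0.14. Gapdh measured 130 ± 20.1 FPKM in mutants and 137 ± 13.4 FPKM in controls (SD, n = 3 each), with 82.5% of its 50-base windows shared with other annotated transcripts, chiefly pseudogenes. Gpi1, which makes fructose 6-phosphate, measured 70.5 ± 5.83 FPKM in mutants and 73.5 ± 2.73 FPKM in controls, and Pgam1, the phosphoglycerate mutase, 13.3 ± 3.01 FPKM in mutants and 14.1 ± 3.87 FPKM in controls. The phosphofructokinase subunits Pfkp and Pfkl stood at 54.4 ± 14.6 and 44.1 ± 4.39 FPKM in mutants and at 50.6 ± 6.06 and 41.7 ± 2.09 FPKM in controls, and Pfkm, the muscle subunit, at 18.0 ± 1.14 FPKM in mutants and 18.6 ± 0.426 FPKM in controls.

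Transporters gave no call either. Slc2a1, the glucose carrier GLUT1 of the blood-retina barrier, measured 117 ± 12 FPKM in mutants and 125 ± 18.5 FPKM in controls, and Slc2a3, the neuronal carrier GLUT3, 5.61 ± 1.998 FPKM in mutants and 5.18 ± 0.175 FPKM in controls (SD, n = 3 each). The lactate carrier Slc16a1 measured 17.0 ± 2.06 FPKM in mutants and 18.2 ± 5.39 FPKM in controls, and Slc16a3, the carrier of strongly glycolytic cells, 6.94 ± 3.46 FPKM in mutants and 6.43 ± 0.758 FPKM in controls. Slc16a3 ran from 3.50 FPKM in mutant replicate 1 to 10.4 FPKM in mutant replicate 3, wider than the whole control range.

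The pathway gene with the smallest unadjusted p was Pdk1, a kinase that holds back the use of pyruvate in mitochondria by inhibiting pyruvate dehydrogenase. It measured 5.95, 6.64 and 6.77 FPKM in mutant replicates 1, 2 and 3, against 7.73, 8.24 and 7.49 FPKM in control replicates 1, 2 and 3. It was 1 of the 36 tested genes, and no other of them had groups that did not overlap, where 1.56% of all genes had all mutants below all controls. The log2 difference was -0.24 with a standard error of 0.105 (limma adjusted p = 0.9998), so it did not pass. The next smallest p belonged to Eno3, Eno2 and Pfkfb2, none of which passed. Pfkfb2, a paralog of Pfkfb3, measured 28.8 ± 1.19 FPKM in mutants and 27.1 ± 1.75 FPKM in controls (SD, n = 3 each).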

How the data were processed

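The deposited FPKM values, 1 per gene and library, were made by the authors. The submitters' processing notes name Cufflinks 2.2.1, DESeq2, STAR 2.5.0b and bedtools 2.17.0 for mouse build mm10, with no role or order. For the annotation, filters, read length, strand and treatment of reads with several matches, nothing is stated. Low FPKM values were whole multiples of a step per gene, so whole reads were worked out from them, for 16489 of 16491 genes above 0 in all libraries, with a tolerance of 0.002 reads that rose to 0.05 at high counts.

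Genes that reached 1 FPKM in 3 or more libraries were fitted on log2(FPKM + 1) with limma 3.58.1 in R 4.3.3, 3 mutant against 3 control libraries, with no covariate, a trended prior and Benjamini-Hochberg adjustment over all 13622 genes, called at an adjusted p under 0.05. The fit was tested on simulated data. Single values were compared by exact permutation. Named genes were Anxa3, the members, their paralogs, Gapdh, Gpi1, Pgam1, the transporters, Pdk1, the 4 genes of the wider list with the smallest p, and the 3 nearest courses to each of the 2 members with the widest range. Of the genes this rule takes, 2 are not reported here. Hif1a lies outside that rule and was chosen after its values were seen. The members and lists were chosen with earlier results of these data known. Shared sequence was counted in GENCODE M21 transcripts. Alternatives were another pseudocount, other filters and scalings, library weights, blocks by replicate number and by letter, voom on recovered reads, and each library left out.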

Additional observations from a re-analysis of the deposited data

How the results depend on the processing

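No member passed at an adjusted p under 0.05 under any alternative run. Of 133 member values under alternatives, 25 changed sign and 108 kept it. Quantile normalization gave Aldoa -0.078 (log2 difference, mutant minus control). Weighting the libraries in limma called 145 genes where equal weights called 0, and gave Hk1 -0.12, Hk2 -0.084, Pfkfb3 0.083, Aldoa -0.23, Eno1b -0.35 and Ldha -0.15. That fit rested mostly on mutant replicate 2 and control replicate 2. With the letter sets as a block, the Hk2 to Hk1 ratio was -0.013, Tpi1 0.081, Pgk1 0.0064 and Pkm 0.062. The cause was not tested. With each library left out in turn, the difference ran from -0.054 to 0.12 for Hk1, -0.040 to 0.14 for Hk2, -0.38 to -0.022 for Pfkfb3, -0.15 to 0.088 for Aldoa, -0.16 to 0.079 for Tpi1, -0.20 to 0.0058 for Pgk1, 0.90 to 2.34 for Eno1b and for the enolase sum, -0.12 to 0.039 for Pkm, -0.11 to 0.20 for Ldha and for the Hk2 to Hk1 ratio, and -1.15 to -0.53 for Anxa3.

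Whether replicate numbers pair the libraries cannot be settled from so few values. Deviations of same-numbered libraries correlated at 0.249, -0.151 and 0.390, and those of differently numbered mutant and control libraries at between -0.352 and 0.231. With the replicate number as a block 0 genes passed in limma, and the differences were -0.93 for Anxa3, 1.38 for the enolase sum and 0.05 for the Hk2 to Hk1 ratio.

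At an unadjusted p under 0.05 limma with equal weights had 165 genes, against 4069 with library weights, 927 with the letter block, 376 with no filter on low values and 97 with voom. With 1 library left out it had from 122 genes, without mutant replicate 3, to 679, without mutant replicate 1. With 3 libraries per group, exact tests cannot go below 0.1.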
